A study of Mus musculus with 29 samples.

Results

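The matrix metalloproteinases (MMPs) and their tissue inhibitors (TIMPs) were followed in stroked and non-stroked mouse cortex at the messenger RNA level. The set comprised 8 protease genes (Mmp2, Mmp3, Mmp8, Mmp9, Mmp12, Mmp13, Mmp14 and Mmp19) and 2 inhibitor genes (Timp1 and Timp2), taken by gene symbol from the 25746 genes counted in each mouse. All 10 genes passed the filter on low counts that left 17031 genes for testing. The RNA came from 29 mice in 8 groups, aged 3 months and of both sexes. Non-stroked tissue was taken from 4 wildtype (WT, C57BL/6J) mice, 3 Rag2-/- mice, whose T and B cells do not mature, and 4 NSG mice, which are on the NOD background with changed Prkdc and Il2rg genes and also lack natural killer cells. Tissue around a photothrombotic infarct of the right sensorimotor cortex was taken at 21 days post injury (dpi) from 4 WT, 3 Rag2-/- and 3 NSG mice. A further 3 WT mice carried a subcutaneous osmotic pump with tacrolimus, a calcineurin inhibitor that blocks T cell activation, from 0 dpi (WT-Tacr acute). In 5 WT mice the pump was started at 7 dpi (WT-Tacr delayed). Both tacrolimus groups were compared with non-stroked WT mice without the drug, so that drug and stroke cannot be told apart within those comparisons. The description of the study speaks of uninjured mice in one place and of the opposite hemisphere in another for the control tissue, which is therefore called non-stroked here.

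MMPs are zinc-dependent enzymes that cut collagens, elastin, proteoglycans and other matrix proteins, and most are secreted as inactive precursors. Gelatinases (Mmp2, Mmp9) act on the basement membrane of blood vessels, collagenases (Mmp8, Mmp13) open fibrillar collagen, stromelysin-1 (Mmp3) has broad substrates and activates other MMPs, macrophage elastase (Mmp12) cuts elastin, and Mmp14 is a membrane-bound enzyme that activates the Mmp2 precursor. TIMPs bind the active site of these enzymes, and in the injured brain MMPs are known both for opening the blood-brain barrier early and for remodelling matrix and vessels later. Transcript counts do not report enzyme activity, which depends on precursor cleavage and on inhibitor protein.

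Of the 8 protease genes, 4 lie in 1 cluster on chromosome 9, in the order Mmp13, Mmp12, Mmp3 and Mmp8, within 296 kb (GRCm38, chr9:7272514-7568485, all on the plus strand). The cluster, 427 kb in all, holds 6 further MMP genes, among them Mmp1b, Mmp1a and Mmp10 between the 4. Mmp1a, Mmp1b and Mmp20 had 0 counts in all 29 mice, whereas Mmp10 had 10 counts, Mmp7 had 6 and Mmp27 had 233, all of them in stroked mice and 0 in the 11 non-stroked mice. The other members are scattered over the genome: Mmp2 at chr8:92827291-92853420, Mmp9 at chr2:164940780-164955850, Mmp14 at chr14:54431612-54445364, Mmp19 at chr10:128790910-128800824, Timp1 at chrX:20870166-20874735 and Timp2 at chr11:118301069-118355740. Timp1 overlaps Syn1, Mmp12 overlaps Mmp1b and Mmp19 overlaps Tmem198b and Gm47093, each on the other strand. Timp2 overlaps Cep295nl on its own strand. Whether strand was used in counting was not given in the sources used here, so reads of such pairs may have been shared.

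RefSeq promoter windows (GRCm38.p6) were at hand for 7 of the 10 genes, in 8 windows, and were searched over 250 bases before the start for the AP-1 motif TGAGTCA, on both strands (TGACTCA on the other), and for the TATA box TATAAA on the gene's strand. AP-1, the Fos and Jun dimer, is a textbook regulator of MMP genes, and the last 120 bases before the start are shown for the 3 windows that held its motif, with the motif in capitals, beside those of Mmp8 and Timp1, which held none.
Mmp3, chr9:7445702-7445821, plus strand: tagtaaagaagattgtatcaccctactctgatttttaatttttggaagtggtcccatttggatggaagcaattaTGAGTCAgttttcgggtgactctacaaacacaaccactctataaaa
Mmp12, second start, chr9:7347254-7347373, plus strand: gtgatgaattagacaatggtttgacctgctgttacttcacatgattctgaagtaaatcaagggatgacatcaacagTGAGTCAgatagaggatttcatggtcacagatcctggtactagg
Mmp13, chr9:7272394-7272513, plus strand: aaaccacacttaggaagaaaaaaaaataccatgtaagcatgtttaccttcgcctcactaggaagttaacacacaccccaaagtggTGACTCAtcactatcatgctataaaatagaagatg
Mmp8, chr9:7558309-7558428, plus strand: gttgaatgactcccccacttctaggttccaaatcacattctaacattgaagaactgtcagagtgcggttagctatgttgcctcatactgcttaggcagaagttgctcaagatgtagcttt
Timp1, chrX:20870046-20870165, plus strand: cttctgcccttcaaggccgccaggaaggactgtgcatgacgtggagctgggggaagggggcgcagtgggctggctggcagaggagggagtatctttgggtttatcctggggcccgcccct
The motif began 46 bases before the start in Mmp3, 35 in Mmp13 and, for the second of the 2 starts listed for Mmp12, 44. It occurred in 4.46% of all 32851 mouse promoter windows of this length (1466 windows). On the gene's strand, a TATAAA began 7 bases before the start in Mmp3 and 16 in Mmp13. The TATA box occurred on either strand in 12.4% of all windows. These matches describe letters in a fixed window and say nothing about binding.

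In all libraries together, counts per mouse ranged from 17789044 to 43403413. Sample titles carried one of 2 prefixes. The 20 libraries titled Imm2, with a median of 37223696 counts, held every non-stroked mouse, and the 9 titled TF, with a median of 23155303, held every WT-Tacr delayed mouse, replicates 3 and 4 of stroked WT and replicates 2 and 3 of WT-Tacr acute. What the prefixes stand for is not given, and no non-stroked mouse was titled TF, so that any effect of the prefix could be estimated only from stroked WT and WT-Tacr acute mice, which hold both. Summed neuron markers, in CPM (read counts scaled to library size with edgeR's TMM factors), were 6745 to 7514 in non-stroked and 4470 to 6238 in stroked WT mice, 4045 to 4951 in WT-Tacr delayed mice, and 7435, 6892 and 5213 in WT-Tacr acute mice, of which the first 2 lay at the level of the controls. The summed astrocyte markers were 940 to 1221 CPM in non-stroked mice and 2078 to 3301 CPM in 16 of the 18 stroked mice, but 1197 and 1137 CPM in WT-Tacr acute replicates 1 and 2. Choroid plexus markers ranged from 4.54 to 1584 CPM over mice of all kinds, in non-stroked and stroked mice alike, and reached 607 to 855 CPM in 4 of the 5 WT-Tacr delayed mice. Rag2 had 2 or fewer counts in every mouse, so its reads do not check the genotype. Il2rg had 31 to 37 counts in stroked NSG and 58 to 137 in stroked WT mice, but 22 to 36 in non-stroked NSG and 27 to 32 in non-stroked WT mice. The 6 T and B cell markers summed to 3.95 to 35.7 CPM in non-stroked NSG and 3.69 to 9.94 CPM in non-stroked WT mice. Of these, Cd3d, Cd8a and Ms4a1 had no read in any NSG mouse, but Cd3d had none in non-stroked WT mice either. Values below are CPM in order of replicate number unless named otherwise.

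**Figure D1:**
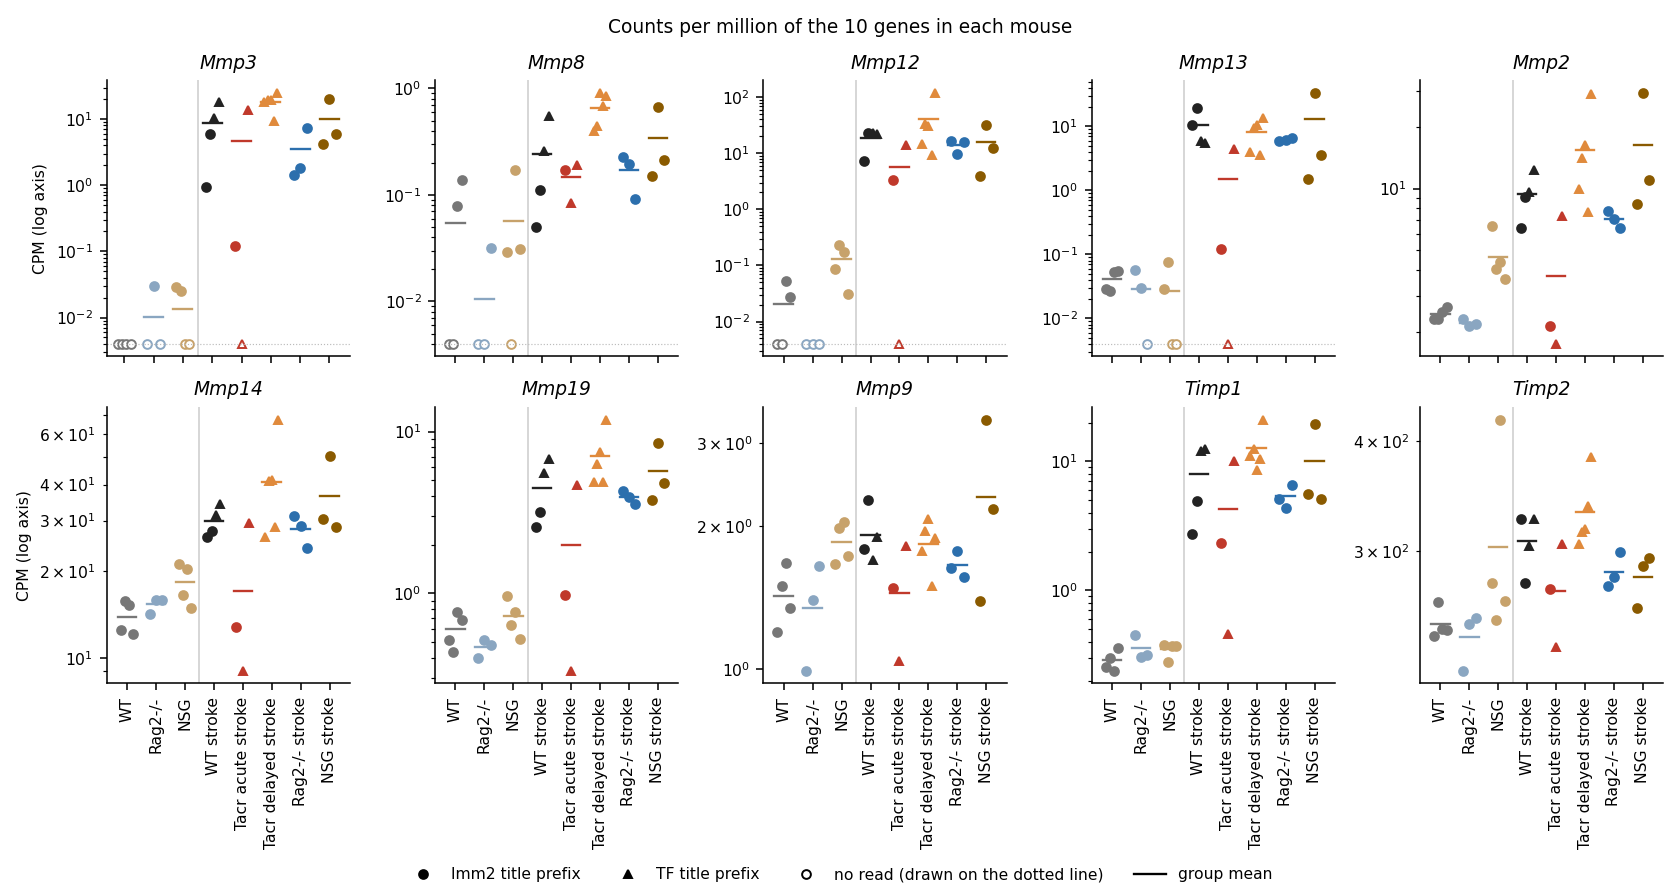
Level of each of the 10 genes (CPM, log axis) in every mouse of the 8 groups, with a line at the group mean; circles are libraries titled Imm2, triangles those titled TF, and open symbols on the dotted line had no read. Stroked mice stand above non-stroked ones of their strain for Mmp2, Mmp3, Mmp12, Mmp13, Mmp14, Mmp19 and Timp1, except in WT-Tacr acute, where replicate 2 had no read of Mmp3, Mmp12 or Mmp13 and replicate 3 reached 13.9 CPM for both Mmp3 and Mmp12.

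In the non-stroked WT cortex the set was dominated by an inhibitor. Per length (RPKM, the CPM divided by the kilobases of exon), Timp2 stood at 63.6 ± 2.57 (SD, n = 4), ahead of Mmp14 at 2.34 ± 0.310 and Mmp2 at 0.723 ± 0.0473. Mmp9 (0.403 ± 0.0574), Timp1 (0.324 ± 0.0595) and Mmp19 (0.170 ± 0.0435) followed, and Mmp8, Mmp13, Mmp12 and Mmp3 were at or below 0.0224 RPKM. Of these neighbours, Mmp9 and Timp1 overlapped in their spread, as did Mmp8 and Mmp13, and Mmp12 and Mmp3. Mmp3 had 0 counts in all 4 WT mice, which allows up to 0.0206 CPM, the level of 3 counts over the group. Mmp12 had 3 counts over the 4 mice, Mmp13 had 6 and Mmp8 had 8.

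After stroke, 7 of the 10 genes rose in WT mice (adjusted p < 0.05 by edgeR's quasi-likelihood test and more than a 2-fold change), against 6.76% of all genes tested that were called higher. None fell. The median log2 fold change of the 10 genes was 2.46, and that of all genes -0.000445. The genes that rose were Mmp2, Mmp3, Mmp12, Mmp13, Mmp14, Mmp19 and Timp1, and for 9 of the 10, all but Mmp8, every stroked WT mouse lay above every non-stroked one, as in 16.3% of all genes tested. In bulk tissue, a change in the number of cells of a type and a change in RNA per cell cannot be told apart.

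The largest fold increases were in 3 of the chromosome 9 genes. Mmp12, the elastase made mainly by macrophages, was at 0, 0, 0.0530 and 0.0275 CPM in non-stroked WT mice and at 7.37, 22.9, 23.1 and 21.9 CPM in stroked ones. All 4 stroked mice were far above the controls, and replicate 1 was lower than the other 3. The ratio of the pooled counts was 876 (95% exact counting interval 299 to 4252, on 3 control counts), and the fitted log2 fold change was 9.59 (SE 1.46, adjusted p = 8.47e-05).

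Mmp3, or stromelysin-1, had no read in any non-stroked WT mouse and stood at 0.934, 5.86, 10.3 and 18.1 CPM after stroke. It was therefore detected in all 4 stroked mice, over a wide range, and was at least 399-fold higher (floor of 3 counts over the control group, adjusted p = 0.000603). Mmp13, collagenase-3, went from 0.0285, 0.0272, 0.0530 and 0.0550 CPM to 10.6, 19.8, 5.91 and 5.59 CPM. Its groups lay far apart, and the fold change of the pooled counts was 268 (log2 fold change 7.87, SE 1.26, adjusted p = 0.000107). Mmp8, the neutrophil collagenase, stayed scarce: it was 0, 0, 0.0795 and 0.137 CPM before and 0.0505, 0.111, 0.261 and 0.550 CPM after stroke. The groups overlapped and the difference did not pass (log2 fold change 2.04, 95% interval 0.31 to 3.76, adjusted p = 0.0726). Summed neutrophil markers were likewise low, at 0.171 to 1.95 CPM in non-stroked and 0.833 to 5.99 CPM in stroked WT mice.

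The proteases already present at rest changed by smaller folds than Mmp12, Mmp3 and Mmp13. Mmp14, the membrane-type enzyme, was 12.5, 15.8, 15.3 and 12.1 CPM in non-stroked and 26.4, 27.7, 31.3 and 34.2 CPM in stroked WT mice, without overlap and with little spread in either group (log2 fold change 1.10, SE 0.27, adjusted p = 0.00502). Mmp2 was 2.31, 2.31, 2.49 and 2.64 CPM in the controls and 6.44, 9.14, 9.61 and 12.4 CPM after stroke. The lowest stroked mouse was thus well above the highest control (log2 fold change 1.94, SE 0.41, adjusted p = 0.00138). Mmp19, a further secreted MMP with basement membrane substrates, went from 0.513, 0.435, 0.769 and 0.687 CPM to 2.58, 3.17, 5.52 and 6.78 CPM (log2 fold change 2.89, SE 0.49, adjusted p = 0.000179). Mmp9, the other gelatinase, differed little: its 4 control values were 1.2, 1.5, 1.67 and 1.35 CPM and its stroked values 1.79, 2.28, 1.70 and 1.89 CPM. These groups did not overlap, but only narrowly, and the log2 fold change of 0.43 had a 95% interval of -0.02 to 0.87 (adjusted p = 0.144).

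The inhibitors parted. Timp1, which is known to be induced in reactive astrocytes and fibroblasts, was 0.256, 0.299, 0.239 and 0.357 CPM in non-stroked and 2.75, 4.92, 12 and 12.6 CPM in stroked WT mice. All stroked mice were above the controls, and the 2 mice titled TF were above the 2 titled Imm2 (log2 fold change 4.78, SE 0.69, adjusted p = 4.52e-05). Timp2, the constitutive inhibitor, was 240.0, 262, 245 and 244 CPM in the controls and 326, 276, 304 and 326 CPM after stroke. The groups lay apart, with a log2 fold change of 0.31 (95% interval 0.07 to 0.56) that did not pass (adjusted p = 0.0536).

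Some of the spread within stroked WT mice followed the title prefix. The mean of the 2 TF mice was 4.18 times that of the 2 Imm2 mice for Mmp3, 5.02 times for Mmp8, 3.20 times for Timp1 and 2.14 times for Mmp19, and 0.379 times for Mmp13, each without overlap between the pairs. With only the Imm2 mice, 6 of the 10 genes were called, as with the prefix as a covariate. In both, Mmp14 passed below the fold threshold (log2 fold change 0.96 and 0.90). Summed fibroblast markers went with the proteases, at 116 to 127 CPM in non-stroked and 296 to 597 CPM in stroked WT mice, as did microglia and macrophage markers, at 185 to 218 and 366 to 467 CPM. The part of either cell type in these results was not tested.

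**Figure D2:**
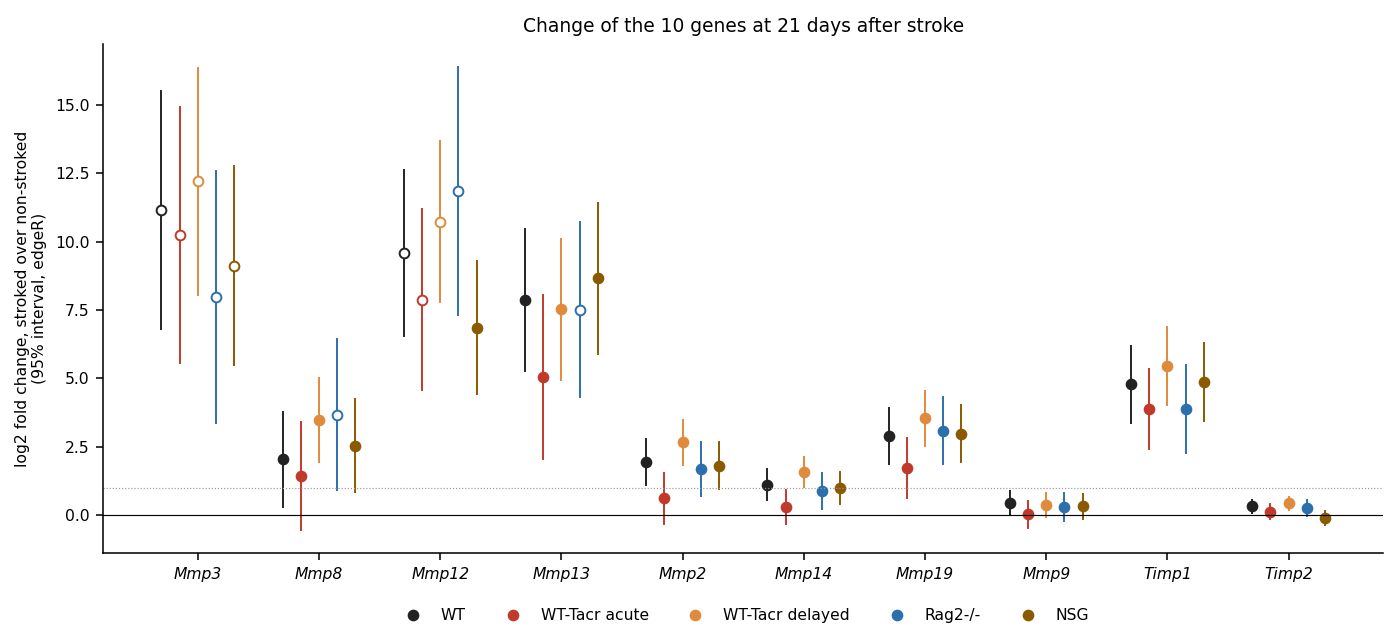
Log2 fold change of each gene in stroked over non-stroked mice of the same strain (y axis, edgeR fit, bars are 95% intervals), coloured by group; both WT-Tacr groups are set against non-stroked WT, the dotted line marks a 2-fold increase, and open points have 3 or fewer counts in the whole control group, so that their fitted value is no bound. Mmp9 and Timp2 lie between -0.11 and 0.43 in all groups, and WT-Tacr acute lies below the other groups for Mmp2, Mmp13, Mmp14 and Mmp19.

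These changes altered the make-up of the 8 chosen proteases, which are only part of the MMP family. The 15 other MMP genes summed to 359 to 391 CPM in non-stroked and 282 to 356 CPM in stroked WT mice. The RPKM of the 8 proteases summed to between 3.28 and 4.05 in non-stroked WT mice, of which Mmp2 and Mmp14 supplied 81.1 to 85.7%. After stroke the sum was 13.1 to 27.2 RPKM and the share of Mmp2 and Mmp14 only 32.3 to 48.4%. Mmp3, Mmp12, Mmp13 and Mmp19 together went from 0.133 to 0.245 RPKM at rest to 6.21 to 17.1 RPKM. Among the inhibitors, Timp1 made up 0.337 to 0.508% of the summed RPKM of Timp1 to Timp4 in non-stroked WT mice and 2.97 to 11.5% in stroked ones, since Timp2 alone stood at 79.1 RPKM after stroke. The order of the group means in stroked WT mice was Timp2, Timp1 (9.07 RPKM), Mmp14 (5.01), Mmp3 (4.88), Mmp13 (3.91), Mmp2 (2.79), Mmp12 (2.60), Mmp19 (1.28), Mmp9 (0.541) and Mmp8 (0.100). Within it, neighbours from Timp1 to Mmp19 overlapped in their spread.

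**Figure D3:**
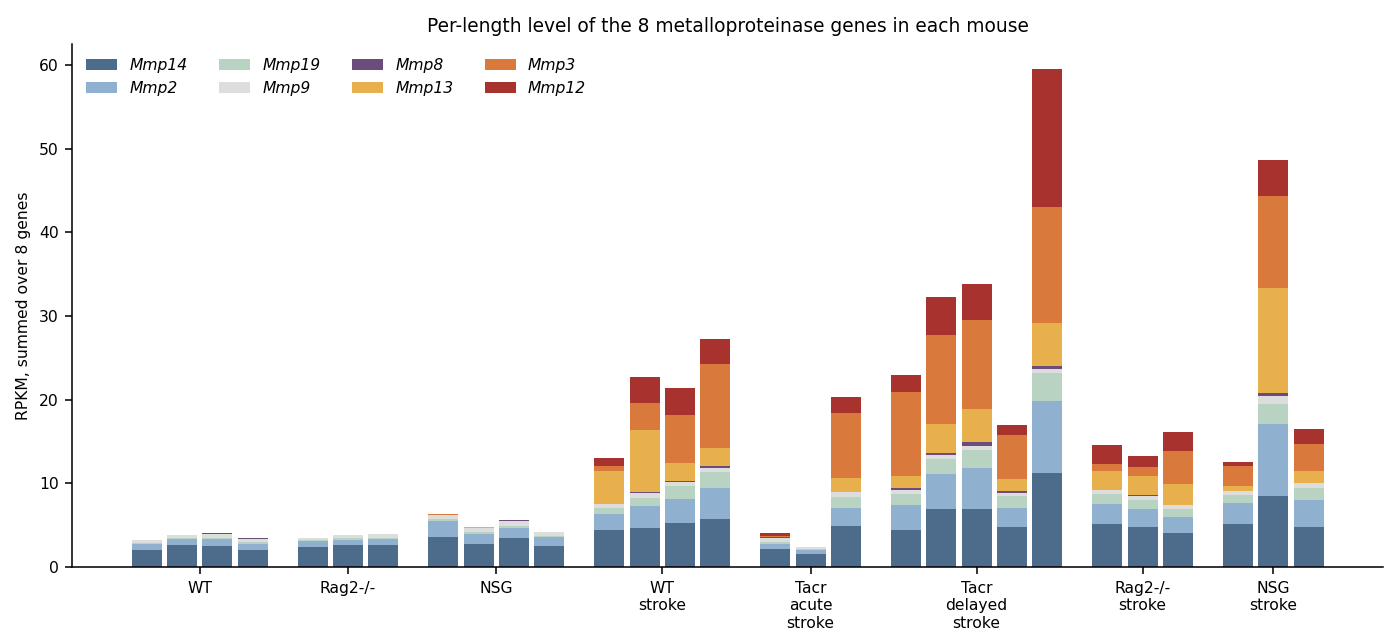
Per-length level (RPKM, y axis) of the 8 protease genes stacked for each of the 29 mice, grouped by strain, stroke and drug. Non-stroked bars of 3.28 to 6.31 RPKM consist mostly of Mmp14 and Mmp2. WT-Tacr acute replicates 1 and 2 excepted, stroked bars are taller, with far more Mmp3, Mmp12 and Mmp13. In these taller bars Mmp14 and Mmp2 supply 32.2 to 60.4%. WT-Tacr acute replicates 1 and 2 (4.12 and 2.46 RPKM) are no taller than the highest non-stroked bar, with 67.5 and 82.8% from Mmp14 and Mmp2.

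Rag2-/- mice were included to ask what the lack of mature lymphocytes changes. In them, 6 of the 10 genes rose after stroke, against 4.22% of all genes, and none fell; the median log2 fold change was 3.38. They were Mmp2, Mmp3, Mmp12, Mmp13, Mmp19 and Timp1. Mmp12 had 0 counts in all 3 non-stroked mice and stood at 16.8, 9.73 and 16 CPM after stroke. This made it at least 469-fold higher (floor of 3 counts over the control group, adjusted p = 0.00178). Mmp13 was 0.0566, 0.0304 and 0 CPM at rest and 5.94, 6.10 and 6.50 CPM after stroke, with the narrowest spread of any stroked group (ratio of pooled counts 205, exact counting interval 69.8 to 997, adjusted p = 0.00343).

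Timp1 in Rag2-/- mice went from 0.453, 0.304 and 0.318 CPM to 5.13, 4.38 and 6.53 CPM, without overlap (log2 fold change 3.88, SE 0.78, adjusted p = 0.00274). Mmp19 went from 0.396, 0.517 and 0.477 CPM to 4.27, 3.96 and 3.59 CPM (log2 fold change 3.08, SE 0.59, adjusted p = 0.00204). Both showed little spread among the 3 stroked mice. Mmp3 had a single read over the non-stroked mice and reached 1.41, 1.83 and 7.23 CPM (ratio 338, exact counting interval 60.2 to 13382, adjusted p = 0.0272). Mmp2 had a log2 fold change of 1.68 (SE 0.48, adjusted p = 0.029), and both calls depended on single mice: Mmp2 was lost in 5 and Mmp3 in 4 of the 6 fits that left out 1 Rag2-/- mouse. Mmp14 was 14.2, 15.9 and 15.9 CPM at rest and 31.0, 28.8 and 24.1 CPM after stroke, apart but not called (log2 fold change 0.87, 95% interval 0.22 to 1.52, adjusted p = 0.0935). In Rag2-/- mice 9 genes lay apart, Mmp9 being the exception, against 18.8% of all genes that lay apart and higher in this comparison of 3 with 3 mice.

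The difference between the stroke response of Rag2-/- and WT mice was tested directly as an interaction. None of the 10 genes was called, nor was any of the genes tested (0.0%), and DESeq2 also called 0. An unadjusted p < 0.05 in edgeR was reached by 713 genes, fewer than that threshold gives by chance. None of the 10 was among those with an unadjusted p < 0.05. The intervals were wide for scarce genes. In fits that left out 1 mouse, the difference in log2 fold change was -4.28 to -1.32 for Mmp3 and 1.36 to 2.62 for Mmp12. It was 0.72 to 3.52 for Mmp8 and -0.85 to 0.46 for Mmp13. For Timp1 the difference in log2 fold change was -0.90 (95% interval -3.11 to 1.31), for Mmp2 -0.26 (-1.55 to 1.02), for Mmp14 -0.23 (-1.09 to 0.62) and for Mmp19 0.19 (-1.37 to 1.75).

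NSG mice, which also lack natural killer cells and signalling through several cytokine receptors, showed 7 genes that rose after stroke, against 5.01% of all genes, and none that fell; the median log2 fold change was 2.75. They were Mmp2, Mmp3, Mmp8, Mmp12, Mmp13, Mmp19 and Timp1. Mmp12 was 0.0877, 0.229, 0.170 and 0.0309 CPM in non-stroked NSG mice and 4.0, 31.4 and 12.3 CPM after stroke, a 121-fold change of the pooled counts (log2 fold change 6.85, SE 1.18, adjusted p = 0.000419). Mmp13 was 0.0292, 0.0762, 0 and 0 CPM and then 1.49, 33.6 and 3.58 CPM (log2 fold change 8.66, SE 1.35, adjusted p = 0.000133). In both genes the groups lay far apart and the second stroked mouse was the highest.

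That mouse, stroked NSG replicate 2, was also the highest of its group for Mmp2 (8.43, 29.3 and 11 CPM), Mmp3 (4.25, 19.8 and 6.0 CPM), Mmp14 (30.5, 50.3 and 28.5 CPM), Mmp19 (3.77, 8.50 and 4.8 CPM) and Timp1 (5.59, 19.6 and 5.11 CPM). Its fibroblast markers summed to 1078 CPM, against 230 and 335 CPM in the other 2 stroked NSG mice; their part in the result was not tested. Without it, 5 of the 10 genes were called, and Mmp2 (log2 fold change 1.05 instead of 1.81) and Mmp8 were lost. The call of Mmp8 was also lost without non-stroked replicate 1, 2 or 4. Mmp8 itself was 0.0292, 0, 0.170 and 0.0309 CPM at rest and 0.152, 0.667 and 0.214 CPM after stroke. Those groups overlapped, on 8 and 40 counts in all (log2 fold change 2.54, SE 0.83, adjusted p = 0.031). Mmp14 passed the adjusted p (0.0161) but fell short of the fold threshold with a log2 fold change of 0.99. Timp1 rose with a log2 fold change of 4.85 (SE 0.69, adjusted p = 7.4e-05).

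Timp2 was the only gene with an unadjusted p < 0.05 for a different stroke response in NSG than in WT mice. It was 276, 250.2, 423 and 263 CPM in non-stroked and 258, 288 and 294 CPM in stroked NSG mice, so that the stroked mice overlapped the controls, of which replicate 3 was high. The log2 fold change was -0.11 in NSG against 0.31 in WT mice, a difference of -0.43 (95% interval -0.79 to -0.06, adjusted p = 0.329). After adjustment none of the 10 genes was called in edgeR, against 0.0117% of all genes, or in DESeq2, which called 69 genes. For Mmp12, the difference was -2.74 (95% interval -8.90 to 3.43) and for Timp1 0.07 (-2.12 to 2.26).

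The 3 strains were also compared at rest. None of the 10 genes was called between NSG and WT mice, by edgeR or DESeq2, against 3.36% of all genes. Mmp2 came nearest: it was 6.58, 4.04, 4.37 and 3.62 CPM in NSG mice, above every non-stroked WT (2.31 to 2.64 CPM) and Rag2-/- mouse (2.13 to 2.32 CPM). Its log2 fold change over WT was 0.93 (95% interval 0.08 to 1.78, adjusted p = 0.169) and over Rag2-/- 1.07 (0.13 to 2.01, adjusted p = 0.198). Timp2 was the only other gene with an unadjusted p < 0.05 in either comparison (log2 fold change 0.29 over WT, adjusted p = 0.135).

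Between NSG and Rag2-/- mice edgeR and DESeq2 called none of the 10 either, against 2.8% of all genes, while 4 genes (Mmp2, Mmp9, Mmp12 and Mmp19) did not overlap, against 24.3% of all genes. Mmp12 was at the bottom of the range, with 19 counts over the 4 non-stroked NSG mice, 3 over the 4 WT and 0 over the 3 Rag2-/- mice. On pooled counts NSG was 6.55 times WT (exact counting interval 1.93 to 34.6, which covers counting error only). NSG was at least 4.47-fold above Rag2-/- on the floor of 3 counts. The NSG and WT mice overlapped for Mmp12, at 0.0309 to 0.229 and 0 to 0.0530 CPM. Between Rag2-/- and WT mice none of the 10 genes was called by either tool or had an unadjusted p < 0.05 in edgeR, against 0.00587% of all genes called, and all 10 overlapped, while 9.44% of all genes did not.

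The 3 mice given tacrolimus from the day of stroke differed widely from each other. For replicates 1 and 2 the title and the deposited file carry different mouse labels, while genotype and treatment are labelled alike for all 3 mice. Against non-stroked WT, 5 of the 10 genes were called higher (Mmp3, Mmp12, Mmp13, Mmp19 and Timp1), against 2.28% of all genes, and none lower, with a median log2 fold change of 1.56. Yet only Timp1 lay apart from the controls, against 10.4% of all genes that lay apart and higher. Mmp12 was 3.33, 0 and 13.9 CPM, Mmp3 was 0.122, 0 and 13.9 CPM and Mmp13 was 0.122, 0 and 4.44 CPM. Replicate 3 thus resembled stroked WT mice, replicate 2 had no read of these 3 genes, and replicate 1 lay between. The fitted log2 fold changes were 7.88 for Mmp12 (SE 1.61, adjusted p = 0.00686) and 5.04 for Mmp13 (SE 1.46, adjusted p = 0.035). Without replicate 3 they were 6.24 for Mmp12 and 0.81 for Mmp13, and neither gene was called.

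Timp1 was 2.31, 0.458 and 10.2 CPM, of which the lowest was just above the highest non-stroked WT mouse at 0.357 CPM (log2 fold change 3.88, SE 0.71, adjusted p = 0.00384). Mmp19 was 0.974, 0.333 and 4.67 CPM, of which replicate 2 lay below the lowest control at 0.435 CPM (log2 fold change 1.71, SE 0.53, adjusted p = 0.0463). Mmp2 (2.14, 1.75 and 7.34 CPM) and Mmp14 (12.8, 9.03 and 29.4 CPM) did not pass, with 95% intervals of the log2 fold change of -0.32 to 1.53 and -0.32 to 0.90. Without replicate 3 none of the 10 genes was called, as with the prefix as a covariate or with only the 2 compared groups in the fit. In the fit of the 2 groups Mmp3, Mmp12 and Mmp13 were not tested, since too few mice had enough reads for the filter on low counts. The cell type markers were divided in the same way, with fibroblast sums of 134, 113 and 389 CPM and microglia and macrophage sums of 236, 250 and 428 CPM; whether replicates 1 and 2 held as much lesion tissue was not tested.

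With tacrolimus from 7 dpi, 8 of the 10 genes rose over non-stroked WT, against 11.5% of all genes, none fell, and the median log2 fold change was 3.51. These were the 7 genes of WT mice and Mmp8. Mmp12 was 14.6, 32.9, 31.2, 9.28 and 119 CPM, all far above the controls, with replicate 5 well above the other 4. The ratio of pooled counts was 1887 (exact counting interval 645 to 9151, adjusted p = 3.3e-06). Mmp3 was 18, 19.2, 19.2, 9.51 and 25.0 CPM, at least 883-fold higher than in the controls (adjusted p = 3.76e-05).

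Mmp8 was 0.402, 0.441, 0.910, 0.679 and 0.843 CPM, all above the control maximum of 0.137 CPM (log2 fold change 3.48, SE 0.75, adjusted p = 0.000452). Neutrophil markers summed to 3.49 to 10.3 CPM in these mice, with Ly6g and Elane at 0. Timp1 was 11, 12.6, 8.65, 10.5 and 21.1 CPM (log2 fold change 5.45, SE 0.69, adjusted p = 1.35e-06), and Timp2 was 306, 316, 318, 337 and 384 CPM. Timp2 passed the adjusted p (0.00338) at a log2 fold change of 0.42, under the fold threshold. With the prefix as a covariate 6 genes were called, and Mmp8 (adjusted p = 0.233) and Mmp14 (adjusted p = 0.061) were lost. Replicate 5, the highest for Mmp2 (28.8 CPM), Mmp3, Mmp12, Mmp13, Mmp14, Mmp19 and Timp1, also had the highest fibroblast sum of the series, 1329 CPM; its part was not tested.

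The effect of the drug was next read between stroked groups. Between acute tacrolimus and WT after stroke none of the 10 genes was called, nor was any gene tested (0.0%), while 2168 genes had an unadjusted p < 0.05 and DESeq2 called 2 genes, none of them among the 10. All 10 log2 fold changes were negative, with a median of -0.91, and 4 had an unadjusted p < 0.05 (Mmp2, Mmp13, Mmp14 and Mmp19). Mmp13 was the only gene in which the groups did not overlap, as in 6.29% of all genes, with 0 to 4.44 CPM under the drug and 5.59 to 19.8 CPM without (log2 fold change -2.83, 95% interval -4.75 to -0.92, adjusted p = 0.311). For Mmp2 the value was -1.34 (-2.26 to -0.42) and for Timp1 -0.90 (-2.11 to 0.31). Without acute replicate 3, 7 of the 10 genes were called lower, in a fit that called 689 of 17262 genes in either direction, among them Mmp2 at -2.24 and Timp1 at -2.43, so that this one mouse decided the outcome.

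Delayed tacrolimus and WT after stroke overlapped in all 10 genes, while 4.23% of all genes did not overlap. None was called, nor was any gene tested (0.0%), while 3455 genes had an unadjusted p < 0.05 and DESeq2 called 1 gene, not one of the 10. Only Mmp8 had an unadjusted p < 0.05 (log2 fold change 1.44, 95% interval 0.16 to 2.72, adjusted p = 0.209). The intervals did not bound the differences closely, at -0.31 to 2.59 for Mmp12, -0.68 to 2.79 for Mmp3 and -0.36 to 1.70 for Timp1. Among the TF libraries alone none was called.

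Between the 2 schedules, 5 of the 10 genes were higher with delayed than with acute treatment, against 5.75% of all genes called in either direction, and none was lower. They were Mmp2 (log2 fold change 2.05, SE 0.44, adjusted p = 0.0102), Mmp14 (1.26, SE 0.29, adjusted p = 0.0103), Mmp19 (1.84, SE 0.49, adjusted p = 0.0141), Mmp12 (2.85, SE 0.86, adjusted p = 0.0248) and Mmp8 (2.07, SE 0.74, adjusted p = 0.0489). Only Mmp2, Mmp8, Mmp19 and Timp2 did not overlap, against 17.8% of all genes, since acute replicate 3 lay within the delayed range for the others. The 5 calls rested on acute replicates 1 and 2: leaving out either gave 0, as did the TF libraries alone or a fit of these 2 groups, and leaving out acute replicate 3 gave 7. All genes moved alike, with 0 called in each of the first 4 fits and 1927 without replicate 3. In the fit of these 2 groups the log2 fold changes of Mmp2 (2.06) and Mmp12 (2.87) were close to those given above. Summed markers of some cell types also lay apart between the schedules, with microglia and macrophage markers at 456 to 576 CPM (delayed) and 236 to 428 CPM (acute). Astrocyte markers were at 2386 to 2727 and 1137 to 2221 CPM, and neuron markers at 4045 to 4951 and 5213 to 7435 CPM. Fibroblast markers overlapped, at 370 to 1329 and 113 to 389 CPM, as did choroid plexus markers, at 12.5 to 855 and 4.54 to 18.9 CPM. Neutrophil, endothelial and T and B cell markers overlapped too. Their part in the result was not tested. Timp1 (1.57, 95% interval 0.38 to 2.77, adjusted p = 0.055) and Mmp13 (2.49, 0.62 to 4.35, adjusted p = 0.0524) were just above the threshold.

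Genes that work with these enzymes were read from 6 lists. Of 15 other MMP genes, 10 passed the filter on low counts. Only Mmp27, also in the chromosome 9 cluster, was called higher, in WT (log2 fold change 6.44, adjusted p = 0.00837), WT-Tacr delayed (7.96) and NSG mice (6.78). The shares of all genes called higher there were 6.76, 11.5 and 5.01%. For Mmp27 the values in WT-Tacr acute (5.36) and Rag2-/- mice (5.54) were also positive but not called. Its control groups had 0 counts, so these fitted values are no bound. The list's median was -0.07 in WT. Of 5 further inhibitors 4 were tested, and A2m, alpha-2-macroglobulin, which traps proteases of many classes, rose in each of the 5 comparisons (log2 fold changes 4.97 in WT, 3.60 in WT-Tacr acute, 5.49 in WT-Tacr delayed, 4.82 in Rag2-/- and 3.02 in NSG). Timp3 and Timp4 both had a log2 fold change of 0.53 in WT, under the fold threshold.

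In the plasminogen system, which produces the plasmin that cleaves MMP precursors, 2 of 9 genes tested rose in WT, against 6.76% of all genes. They were Plau (log2 fold change 1.37), the urokinase, and Plaur (1.12), its receptor, which also rose in WT-Tacr delayed, and Plau rose in NSG as well. The list's median in WT was 0.54, and none of it was called in WT-Tacr acute or Rag2-/- mice (against 2.28 and 4.22% of all genes). Klk8 was called in NSG alone (2.30, SE 0.42), at 0.34 in WT. Of 13 ADAM and ADAMTS proteases 3 rose in WT (Adamts12 1.92, Adam12 1.15 and Adam8 1.05), 4 in WT-Tacr delayed and 2 in NSG. The shares of all genes called higher in these comparisons were 6.76, 11.5 and 5.01%.

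Of 7 cathepsins, the lysosomal proteases, 6 rose in WT (against 6.76% of all genes), 6 in WT-Tacr delayed (11.5%), 5 in Rag2-/- (4.22%), 7 in NSG (5.01%) and 1 in WT-Tacr acute (2.28%), with a median of 1.67 in WT. Ctss (2.09) and Ctsk (2.08) led the list. Of 17 matrix genes that MMPs cut, 5 rose in WT (against 6.76% of all genes). They were Spp1 (4.87), Col3a1 (4.76), Col1a2 (3.62), Col1a1 (3.56) and Fn1 (1.0), which encode osteopontin, fibrillar collagens and fibronectin. The list counted 6 in WT-Tacr delayed (against 11.5% of all genes), 4 in Rag2-/- (4.22%), 4 in NSG (5.01%) and 3 in WT-Tacr acute (2.28%). No gene reported from the 6 lists fell in any of the 5 stroke comparisons.

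**Figure D4:**
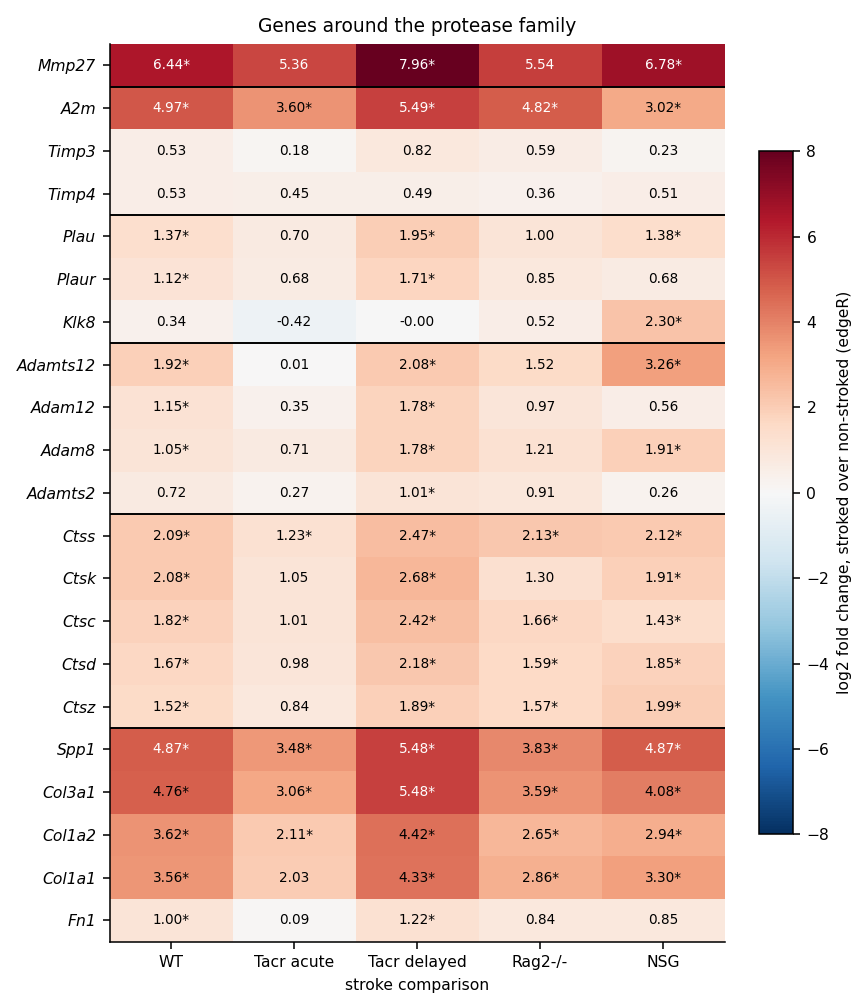
Log2 fold change in stroked over non-stroked mice (colour and printed value, edgeR; both WT-Tacr columns against non-stroked WT) for the named genes around the MMP family, in 5 stroke comparisons (columns); lines separate the lists and asterisks mark called genes. A2m, Ctss, Spp1, Col3a1 and Col1a2 carry an asterisk in all 5 columns, and the WT-Tacr acute column has the fewest.

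Across the 18 stroked mice, the members were positively correlated with Mmp12 and Timp1, more closely by Pearson's r than by rank for most. On log2 CPM, Mmp12 was most like Kcnj15 (Pearson r = 0.966), Atp6v0d2 (0.964), Lilr4b (0.958), Cyp1b1 (0.953) and Gm49339 (0.951). Timp1 was most like Steap4 (0.976), Spp1 (0.959), Slc43a3 (0.957), Il1rn (0.952) and Cyp1b1 (0.949). Among the set itself, Mmp12 was nearest to Mmp19 (0.923) and Timp1 to Mmp19 (0.946) and Mmp3 (0.941), while Mmp8 was the least like Mmp12 (0.566) and Mmp9 the least like Timp1 (0.633). By Spearman's rho the least like were Timp2 for Mmp12 (0.453) and Mmp13 for Timp1 (0.381). These 18 points share groups, title prefix and depth, and WT-Tacr acute replicates 1 and 2 lie at the low end of most of these genes, so the values describe this set of mice only.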

How the data were processed

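RNA from brain tissue of 29 mice was sequenced by the authors, who deposited whole-number read counts per Ensembl gene, 1 table per mouse. Aligner, genome build of the counting and use of strand are not given in the sources used here. Of 25746 gene identifiers, 25712 matched the GENCODE M21 annotation (GRCm38), which gave symbols, positions and exon lengths, and 34 did not.

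Counts were normalised by TMM and fitted in edgeR 4.0.16 (R 4.3.3, limma 3.58.1) with 1 quasi-likelihood model over the 8 groups, after filterByExpr kept 17031 genes. Adjusted p-values are Benjamini-Hochberg over all of these, and a call needs an adjusted p under 0.05 and an absolute log2 fold change above 1. Standard errors are the fold change divided by the root of F. CPM uses TMM-scaled library sizes, and RPKM divides it by exon kilobases. The deposited counts had totals of 17789044 to 43403413 per mouse. Folds on 3 or fewer control counts were taken from pooled counts with 95% exact intervals that cover counting error only, or from a floor of 3 counts over the group. No label says that mice of a group were processed as independent batches, so p-values measure the spread between these samples.

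Members and lists were chosen with earlier results of these data known. All 10 members were named, as were, from each list of related genes, those called in any stroke comparison (at most 5 per list, by size in WT) with Timp3 and Timp4, and the 5 genes most like Mmp12 and Timp1 (log2 CPM, prior count 2). Alternatives were RLE scaling, no filter or a mean of at least 1 CPM, DESeq2 1.42.0, the title prefix as a covariate, the compared groups alone, 1 prefix alone, no minimum fold, a replicate block and leaving out each mouse. The pipeline was tested on simulated data. A few list genes are not reported here and were left out of the list counts, for a reason unrelated to their values. Promoters came from RefSeq (GRCm38.p6). Figures used Python 3.11.15, pandas 2.3.3, numpy 2.4.6 and matplotlib 3.10.9.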

Additional observations from a re-analysis of the deposited data

Results flagged for a closer look

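Each member was checked for a mouse standing apart in its group of 4 or 5 mice. The measure was the gap to the nearest mouse over the range of the group. Of 39 combinations of gene and group tested, 4 held such a mouse. Chance gives about 1 in 20 for normally distributed values, which CPM near 0 or groups of mixed title prefix need not be. Mmp12 was 7.37 CPM in stroked WT replicate 1, against 21.9 to 23.1 CPM in the other 3, and 119 CPM in WT-Tacr delayed replicate 5, against 9.28 to 32.9 CPM in the other 4. Timp1 was 0.279 CPM in non-stroked NSG replicate 2, against 0.368 to 0.380 CPM in the other 3. Timp2 was 423 CPM in non-stroked NSG replicate 3, against 250.2 to 276 CPM in the other 3.

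The fitted stroke response of Timp2, called in neither strain, was -0.11 in NSG and 0.31 in WT mice on the log2 scale. Its log2 fold change in NSG minus that in WT was -0.43, with an unadjusted p of 0.0232 in edgeR's test of the difference and an adjusted p of 0.329. The non-stroked NSG mean that enters it contains the high replicate 3, without which the log2 fold change in NSG mice was 0.09.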

How the results depend on the processing

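The counts of members called after stroke held for WT (6 to 8 over all settings), Rag2-/- (4 to 6), NSG (5 to 8) and WT-Tacr delayed mice (6 to 9), and no called value changed direction under any setting. Leaving out 1 mouse gave 7 to 8 in WT, 4 to 5 in Rag2-/-, 5 to 8 in NSG (5 without stroked NSG replicate 2) and 8 in WT-Tacr delayed mice. In WT the additional call was Mmp8, without stroked replicate 1 or 2 or control replicate 5. In Rag2-/- mice Mmp2 held only without stroked replicate 3, and Mmp3 only without stroked replicate 1 or 2.

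Each comparison that involved WT-Tacr acute depended on single mice. Against non-stroked WT the 5 calls became 0 with the title prefix as a covariate, 2 with the Imm2 libraries alone, which hold a single WT-Tacr acute mouse taken to vary like the other groups, and 0 with the compared groups alone, where Mmp3, Mmp12 and Mmp13 fell under the filter on low counts. Leaving out 1 mouse gave 0 to 5, with 0 without acute replicate 3 and 3 without any one non-stroked WT mouse. Against stroked WT it gave 0 to 7, with 7 without acute replicate 3. For delayed against acute treatment the 5 calls became 3 with the covariate, 0 with the compared groups alone and 0 with the TF libraries alone. Leaving out 1 mouse gave 0 to 7, with 0 without acute replicate 1 or 2, 3 without delayed replicate 5 and 7 without acute replicate 3. The cause was not tested. The difference tests between strains gave 0 calls under every setting run.

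Labels number the non-stroked mice, so a replicate block was tried. Deviations of same-numbered mice from their group means correlated between -0.26 and 0.11, so the numbers do not pair the mice. With the block 1 gene, Mmp2, was called higher in NSG than Rag2-/- mice at rest (log2 fold change 1.07, adjusted p = 0.0214), as with the same mice unblocked (1) and with the compared groups alone (1). Against WT the block gave 0, and the same mice unblocked gave 1, again Mmp2 (1.04, adjusted p = 0.0369). Between Rag2-/- and WT mice the block gave 0.

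Of 2162 values of single members under other settings, 2065 kept their direction and side of the threshold, 71 lost and 26 gained a call. A further limit is depth: Mmp3, Mmp8, Mmp12 and Mmp13 had few or no reads in non-stroked mice, so that their folds are bounds or have wide intervals.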

Other observations

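Outside the 10 genes, Mmp15, which encodes a membrane-type MMP, stood apart in NSG mice with or without stroke. Its level in non-stroked mice was 23.0, 27.9, 26.6 and 24.9 CPM in WT, 23.6, 26.8 and 22.3 CPM in Rag2-/- mice, and 46.4 to 50.4 CPM in the 4 NSG mice. The log2 fold change of non-stroked NSG mice was 1.01 over Rag2-/- (SE 0.11, adjusted p = 4.88e-07 in edgeR's quasi-likelihood test) and 0.93 over WT (SE 0.10, adjusted p = 3.03e-07), the latter under the fold that a call required. After stroke Mmp15 averaged 44.3 ± 0.319 CPM (SD, n = 3) in NSG, 19.4 ± 2.95 CPM (SD, n = 4) in WT and 19.6 ± 3.27 CPM (SD, n = 3) in Rag2-/- mice, so that the NSG groups did not overlap with the WT or Rag2-/- groups.

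Mmp23, a further membrane-anchored family member, was lower in non-stroked NSG mice, at 0.627 ± 0.128 CPM (SD, n = 4) against 1.37 ± 0.257 CPM (SD, n = 4) in WT. This rests on 17 to 29 reads per NSG mouse (log2 fold change -1.12, SE 0.33, adjusted p = 0.0298). Both genes were picked after their values were seen. NSG mice also differ from the others in strain background, which cannot be told apart here from the immune deficiency.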
